A study of Mus musculus with 2 samples.

Results

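Guanylate-binding proteins (GBPs) and immunity-related GTPases (IRGs) are large GTPases that interferon gamma switches on in most cell types. The 10 genes described here, *Gbp2*, *Gbp3*, *Gbp4*, *Gbp5*, *Gbp6*, *Gbp7*, *Gbp8*, *Gbp9*, *Irgm1* and *Igtp*, were found by symbol among the 33696 genes listed for both libraries, and all 10 were found. They were chosen by measured values, namely the difference between BUP-Gel-treated and untreated tumors in earlier results of these data. Their ratios between the libraries are therefore given as a description, with no test, and no support is drawn from them.

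CT26 is a mouse colon carcinoma line, here grown under the skin of male BALB/c mice of 6 to 8 weeks. BUP-Gel is a hydrogel that holds the local anesthetic bupivacaine (BUP), injected as a single dose of 40 mg/kg, and untreated (UT) mice bore the same tumors without gel. Live CD45+ and CD45- cells were sorted from 3 tumors a group and mixed, at 4 to 1 by the sample labels and at 3 to 1 by the study's methods, and each group was run as 1 library. No group without bupivacaine but with an empty gel was among the 2 libraries, so gel and drug cannot be told apart. Since a condition is represented by 1 pooled library, differences between conditions carry no test. Every interval below is at 95%, covers counting error only, and leaves out the differences between mice, between cells and between library preparations.

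GBPs are known for binding to membranes of vacuoles and bacteria inside an infected cell, where they assemble into coats and help to open the vacuole or to alert the inflammasome. IRGs do related work on vacuole membranes, and their regulatory members, *Irgm1* and *Igtp* (also called Irgm3), keep the effector IRGs inactive on the cell's own membranes. Interferon gamma acts through the receptor chains *Ifngr1* and *Ifngr2* and the kinases *Jak1* and *Jak2*, with *Irf1* among the factors it induces, and in tumors its main sources are T and NK cells, so these GTPase genes are widely read as a record of interferon reaching a cell.

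The UT library held 83228442 unique molecular identifiers (UMIs, counted RNA molecules) in 7556 barcodes and the BUP library 89918925 in 7221. Filtering left 7163 and 6776 cells with medians of 8430 and 10420 UMIs, and 68 barcodes of the kept cells occurred in both libraries, of 76 before filtering. Clustering, with the GBP and IRG genes left out of the genes that define clusters, gave 23 clusters, of which 16 were named from markers and 7 were not. The 13 classes described below are 1 cluster each and held 6134 UT and 5729 BUP cells, and the erythroid-like, mast-like and fibroblast-like clusters were kept apart from them. The neutrophil-like cells were led by *S100a9*, *Retnlg* and *Csf3r*, the C1q macrophage-like cells by *C1qa*, *C1qb* and *C1qc*, the CD8 T-like cells by *Cd3g* and *Cd8a*, and the NK-like cells by *Ncr1* and *Gzma*. The 3 tumor classes had Y-linked genes at 2.72 to 10.7 CPM (the usual scaling of counts to a common total), and the immune clusters, which come from the male hosts, at 108 CPM or more. A class of macrophages led by *Rsad2*, *Ifit2* and *Cmpk2* is called interferon-led. It was built from interferon-induced genes, so its high GTPase level is no independent finding.

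The 10 genes lie in 3 places of the mouse genome (GRCm39, GENCODE annotation). *Gbp5* (chr3:142199739-142228105), *Gbp7* (chr3:142236044-142255910), *Gbp3* (chr3:142265731-142278979) and *Gbp2* (chr3:142326349-142343779) stand in a row on the plus strand of chromosome 3. *Gbp8* (chr5:105162016-105287452), *Gbp9* (chr5:105224332-105287452), *Gbp4* (chr5:105263633-105287609) and *Gbp6* (chr5:105418568-105443751) lie on the minus strand of chromosome 5, and the annotated spans of *Gbp8*, *Gbp9* and *Gbp4* overlap. *Irgm1* (chr11:48752795-48763164, minus strand) and *Igtp* (chr11:58089840-58098417, plus strand) are both on chromosome 11. Most GBP genes have 11 exons in the canonical transcript (*Gbp8* has 9), while *Irgm1* has 2 and *Igtp* 3.

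Likeness of the coding sequences decides how surely a UMI can be given to 1 gene. The chromosome 5 genes were near copies of each other, with *Gbp4* and *Gbp8* identical at 92.92% of aligned coding bases and *Gbp4* and *Gbp9*, the least alike of the 4, at 89.56%. On chromosome 3, *Gbp3* and *Gbp7* matched at 78.32% and *Gbp2* and *Gbp5* at 67.91%. *Irgm1* and *Igtp* matched at 67.93%, and GBPs matched the IRGs at 54.83% to 58.99%. Of all stretches of 90 bases in the *Gbp6* transcript, 83.1% also occur in a transcript of another gene, such as *Gbp10*, *Gbp11* or *Gm43302*, so the *Gbp6* counts are uncertain. Within the first 500 bases, which a kit that reads the 5′ end favors, the shared part was 34.3% for *Gbp6*, 29.7% for *Igtp* (with *Irgm2*), 10.9% for *Gbp8*, 6.57% for *Gbp4* and 4.14% for *Gbp9*. *Gbp5* and *Irgm1* shared no stretch with another gene, and their counts, with those of *Gbp2* (0.367% over the whole transcript), rest on unique sequence.

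Promoters are shown because these genes are known interferon targets, with letters searched for on both strands from 250 bases before to 50 bases after the start of the canonical transcript. The letters TTCNNNGAA of the GAS element, named for activation by interferon gamma, occurred in 2 of the 10 windows, against 8.81% of 21770 windows of protein-coding genes. The letters GAAANNGAAA, a core of the ISRE element to which interferon regulatory factors bind, occurred in 4 of the 10, against 3.84%. *Gbp5* and *Gbp7* held both, as did 0.565% of all windows. The 160 bases before the start are given below, 5′ to 3′ on the gene's strand, with matched letters in capitals, for the 3 genes that had a match within them and for *Gbp4*, whose level differed most over the whole libraries and whose window held none.
Gbp5 (chr3:142202374-142202533, plus strand): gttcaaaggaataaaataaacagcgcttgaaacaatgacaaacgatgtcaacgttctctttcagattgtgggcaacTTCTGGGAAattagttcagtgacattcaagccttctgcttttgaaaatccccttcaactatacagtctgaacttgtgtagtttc
Gbp7 (chr3:142235884-142236043, plus strand): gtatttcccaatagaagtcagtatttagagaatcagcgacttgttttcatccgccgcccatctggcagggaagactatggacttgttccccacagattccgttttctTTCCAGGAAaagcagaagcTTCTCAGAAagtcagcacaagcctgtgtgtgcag
Irgm1 (chr11:48762248-48762407, minus strand): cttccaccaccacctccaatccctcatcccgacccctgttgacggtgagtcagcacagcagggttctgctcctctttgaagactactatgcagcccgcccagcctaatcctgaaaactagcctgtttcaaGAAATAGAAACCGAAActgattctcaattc
Gbp4 (chr5:105287453-105287612, minus strand): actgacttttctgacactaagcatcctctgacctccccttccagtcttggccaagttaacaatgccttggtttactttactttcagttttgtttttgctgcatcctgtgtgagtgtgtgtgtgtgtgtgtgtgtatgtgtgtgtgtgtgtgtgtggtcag
The GAS letters began 84 bases before the start in *Gbp5* and 53 and 34 bases before it in *Gbp7*, and the 2 ISRE matches of *Irgm1*, at 30 and 24 bases before its start, overlap in 4 bases. *Gbp2*, *Gbp5* and *Gbp7* had an ISRE match at or after the start or reaching across it, not wholly within the bases printed. A match is letters only, and the absence of one says only that these letters are not in this window.

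Over the whole libraries the 10 genes together were lower in the BUP library than in the UT library. They reached 893 CPM in all UT cells and 641 CPM in all BUP cells (log2 ratio of BUP over UT -0.48, interval -0.49 to -0.46). All 10 were lower, from *Gbp4* at 125 and 71.8 CPM (log2 ratio -0.80) and *Gbp8* at 34.8 and 21.4 CPM (-0.70) to *Gbp2* at 270 and 214 CPM (-0.33) and *Gbp3* at 59.0 and 47.5 CPM (-0.31). In a whole library the mix of cell classes and the level within a class cannot be told apart, and the UT library held more macrophage-like cells and the BUP library more tumor cells. The levels below are therefore given within classes, as CPM of all UMIs that a class held in a library.

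By class, the summed level of the 10 genes was highest in the interferon-led macrophages, with 2441 CPM among UT and 2268 CPM among BUP cells. The cluster of regulatory and gamma-delta T-like cells followed at 1471 and 1071 CPM. Cycling tumor cells were lowest in both libraries, at 492 and 474 CPM. Point estimates were lower in BUP in all 13 classes, with log2 ratios of -0.74 in neutrophils, -0.69 in the *Inhba* and *Cxcl3* macrophages, -0.50 in the *Ogn* and *Aspn* tumor cells, -0.46 in the regulatory and gamma-delta T cells, -0.42 in the *Adgre4* and *Ace* monocytes and -0.39 in the C1q macrophages. The remaining 7 classes lay between -0.31 in cycling C1q macrophages and -0.05 in cycling tumor cells, and in the last of these the interval included 0 (-0.12 to 0.02).

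**Figure D1:**
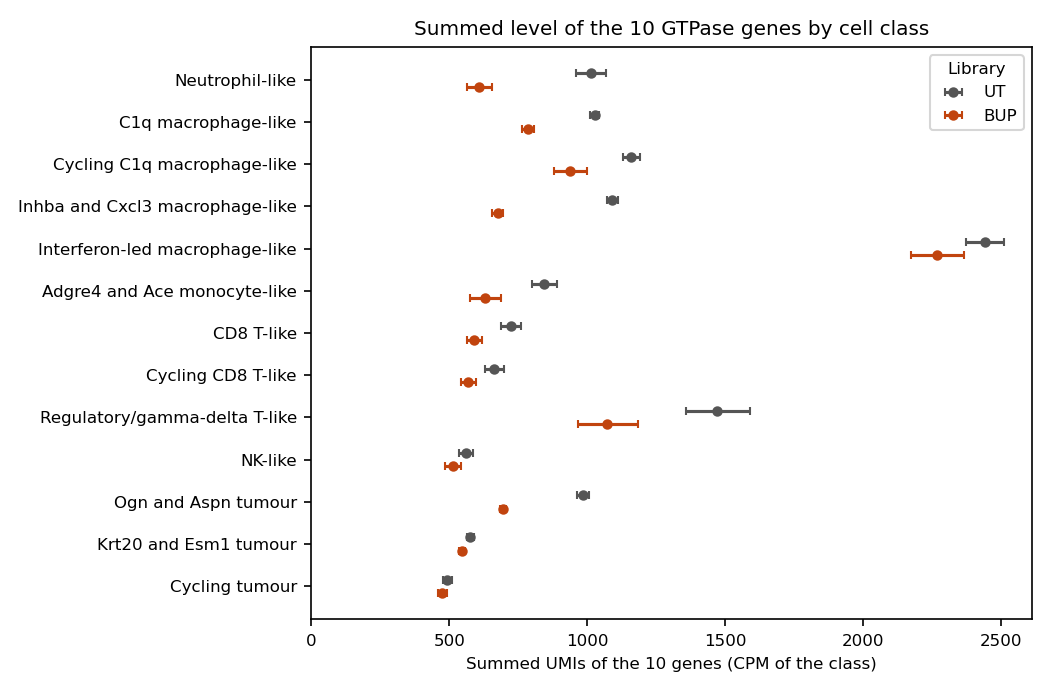
Summed UMIs of the 10 GTPase genes in each cell class (horizontal axis, CPM), with 1 point for the UT and 1 for the BUP library and 95% Poisson counting intervals as bars. The BUP point lies to the left of the UT point in all 13 classes, from 608 against 1013 CPM in neutrophil-like cells to 474 against 492 CPM in cycling tumor cells.

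The genes differed in where they were expressed. *Gbp2*, a GBP that carries a lipid anchor and coats pathogen vacuoles, was highest in the interferon-led macrophages (723 CPM in UT, 663 in BUP) and next in the *Ogn* and *Aspn* tumor cells (432 and 297 CPM), with no overlap of the intervals in either library. Its lowest level was in CD8 T cells, at 48.5 and 39.0 CPM. *Gbp5*, known for promoting assembly of the NLRP3 inflammasome, was likewise highest in the interferon-led macrophages (188 and 235 CPM). The second place of *Gbp5* went to neutrophils in UT (128 CPM) and to the *Adgre4* and *Ace* monocytes in BUP (90.6 CPM).

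Lymphocytes carried other members. *Gbp6* was highest in the regulatory and gamma-delta T cells (223 and 146 CPM) and next in CD8 T cells (127 and 90.8 CPM), and lowest in neutrophils at 9.81 and 2.68 CPM. *Igtp* was also highest in the regulatory and gamma-delta T cells (192 and 123 CPM), where its interval overlapped that of the interferon-led macrophages (165 and 122 CPM). *Gbp4*, *Gbp7* and *Gbp9* had the interferon-led macrophages first in both libraries. For *Gbp9* that interval overlapped the interval of the regulatory and gamma-delta T cells, which came second. *Gbp4* was second in the regulatory and gamma-delta T cells (256 and 193 CPM), with NK cells at 162 and 133 CPM. *Gbp8* reached 82.9 and 78.5 CPM in regulatory and gamma-delta T cells and 82.7 and 80.2 CPM in interferon-led macrophages, which did not differ beyond their intervals. Its level in the *Krt20* and *Esm1* tumor cells was 6.18 and 4.05 CPM.

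*Gbp3* ran from 146 CPM in interferon-led macrophages to 37.3 CPM in NK cells of the UT library. *Irgm1* was first in interferon-led macrophages (235 and 212 CPM) and second in neutrophils (167 and 94.9 CPM), and lowest in cycling tumor cells in UT (29.3 CPM) and in CD8 T cells in BUP (21.3 CPM). Of the 12 pairs of neighbors in the order of each gene, between 7 and 11 overlapped in their intervals, so most of each order is not resolved. The lowest class overlapped the next in every order but those of *Gbp4* in BUP and *Gbp7* in UT, so the lowest classes named are point estimates. The first class overlapped the second for *Gbp8*, *Gbp9* and *Igtp* in both libraries.

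**Figure D2:**
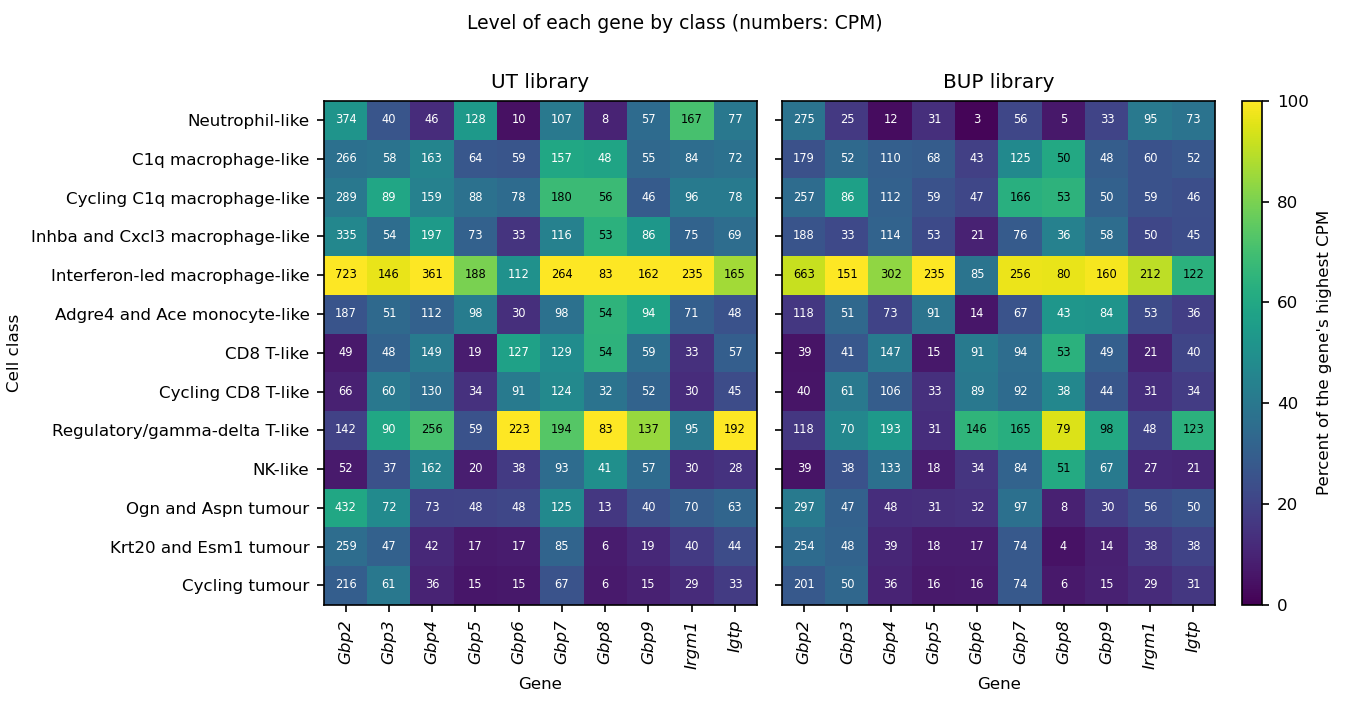
Level of each gene (columns) in each of 13 cell classes (rows) in the UT library (left) and the BUP library (right), with the CPM printed in each cell and the color giving the percent of that gene's highest CPM. *Gbp2* is brightest in interferon-led macrophages, next in *Ogn* and *Aspn* tumor cells and darkest in T and NK cells, while *Gbp4*, *Gbp6* and *Gbp8* are brighter in T cells than in tumor cells.

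Across the 26 points made of 13 classes in 2 libraries, log2 levels of *Gbp4* and *Gbp8* went together (Pearson r = 0.91), as did *Gbp5* and *Irgm1* (0.88) and *Gbp4* and *Gbp6* (0.85), while *Gbp2* and *Gbp6* did not (-0.25). These are descriptions over points that share libraries, and the chromosome 5 genes also share sequence. Among 12825 genes with at least 200 UMIs, the 10 included, the 5 others most like the mean of the 10 in pattern were *Zbp1* (r = 0.94), *Mx2* (0.89), *Xaf1* (0.89), *Tapbp* (0.88) and *Dtx3l* (0.87). *Zbp1* senses nucleic acids in the Z form, *Mx2* is an antiviral GTPase and *Tapbp* loads peptides onto MHC class I.

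In neutrophil-like cells the summed level was 1013 CPM (960 to 1069) in 617 UT cells and 608 CPM (564 to 656) in 429 BUP cells. *Gbp5* stood at 128 CPM in the UT and 31.3 CPM in the BUP cells, which is 4.07-fold lower (log2 ratio -2.03, -2.59 to -1.49). *Gbp4* stood at 46.0 and 11.6 CPM (-1.98, -2.97 to -1.10), on 61 and 13 UMIs. These were the widest ratios of any of the 10 genes in any of the 13 classes among those with at least 50 UMIs over both libraries.

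Other genes were lower in neutrophils by less. *Gbp7*, which has been linked to assembly of the NADPH oxidase, stood at 107 and 56.4 CPM (-0.93, -1.38 to -0.49). *Irgm1* stood at 167 and 94.9 CPM (-0.81, -1.16 to -0.47) and *Gbp9* at 56.6 and 33.1 CPM (-0.77, -1.38 to -0.19). *Gbp3*, on 53 and 28 UMIs (-0.67), had an interval that reached 0.01. *Gbp2*, the gene with most UMIs here, stood at 374 and 275 CPM (-0.45, -0.66 to -0.24), and *Igtp* at 77.0 and 73.4 CPM (-0.07, -0.51 to 0.36). *Gbp6*, on 13 and 3 UMIs, and *Gbp8*, on 11 and 6 UMIs, were under 50 UMIs and enter no count.

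Of the 8 genes that passed 50 UMIs in neutrophils, 6 were lower by at least 1.5-fold and 0 higher, where 13.4% of 3945 features were lower and 2.36% higher by that fold. The median log2 ratio of the 8 was -0.79 and that of all these features -0.09. Because the genes were selected on this ratio, nothing is read from these counts, here or in the other classes. With the minimum raised to 200 UMIs, 3 genes remained past the fold.

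The difference in *Gbp5* was also one in the number of cells that carried it. A *Gbp5* UMI was found in 12.3% of UT neutrophils and 5.36% of BUP neutrophils. Cells with fewer than 2000 UMIs, 341 in UT and 198 in BUP, could not be thinned to that depth and were left out. In the 276 UT and 231 BUP neutrophils thinned to 2000 UMIs the shares were 11.2% and 6.06%. *Gbp2* was found in 31.2% and 30.7% of the thinned cells, and *Igtp* in 10.9% and 9.52%. In erythroid-like cells 0 of 128 UT cells and 0 of 114 BUP cells had a *Gbp5* UMI, which allows shares of up to 2.34% and 2.63%. Median depth was 1882 and 2133 UMIs in neutrophils and 1018 and 1116 UMIs in erythroid-like cells. A thinned neutrophil had a UMI of 1.13 of the 10 genes on average in UT and of 0.848 in BUP, and the share with 3 or more was 16.3% and 8.23%. The share with a UMI of any of the 10 was 52.2% (46.1 to 58.2) in UT and 49.8% (43.2 to 56.4) in BUP.

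**Figure D3:**
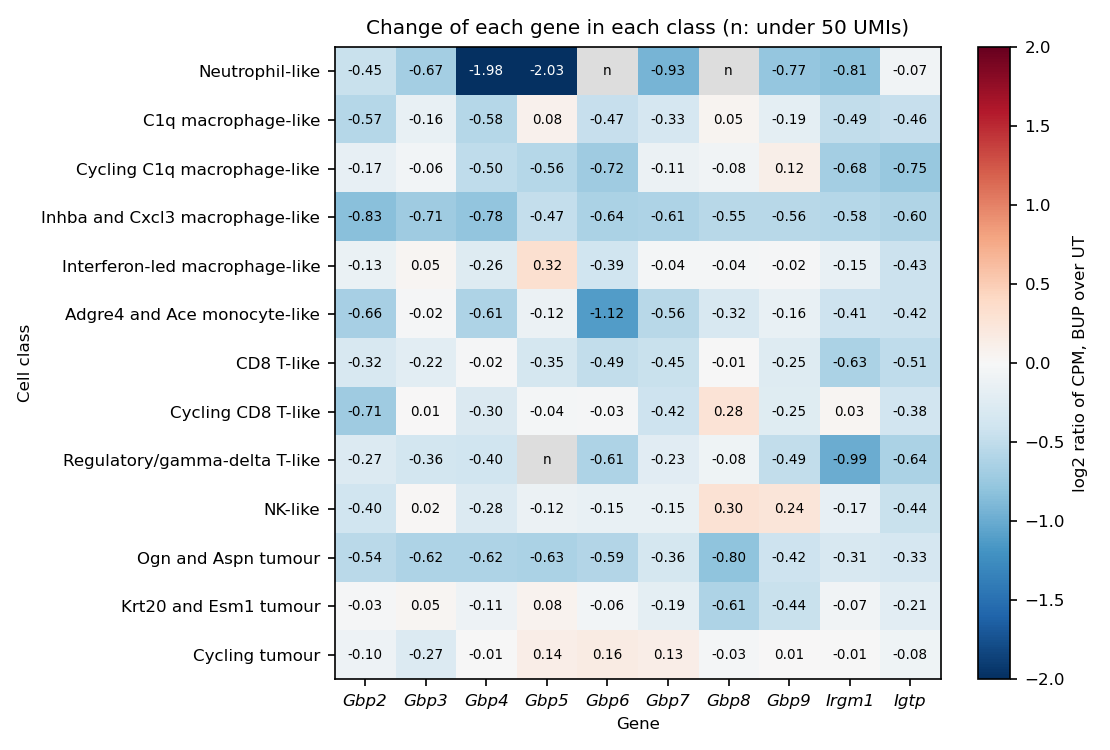
Log2 ratio of CPM, BUP over UT (color and printed value), of each of the 10 genes (columns) in 13 cell classes (rows), with n where a gene had under 50 UMIs over both libraries. *Gbp5* at -2.03 and *Gbp4* at -1.98 in neutrophil-like cells are the lowest values, and the row of *Inhba* and *Cxcl3* macrophage-like cells is below 0 throughout.

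The *Inhba* and *Cxcl3* macrophages, an inflammatory type led by *Cxcl3*, *Thbs1* and *Slpi*, differed most evenly. Their summed level was 1091 CPM in 1126 UT cells and 676 CPM in 737 BUP cells, and all 10 genes lay lower. *Gbp2* stood at 335 and 188 CPM (-0.83, -0.93 to -0.74), *Gbp4* at 197 and 114 CPM (-0.78, -0.91 to -0.66) and *Gbp3* at 54.1 and 33.1 CPM (-0.71, -0.95 to -0.48). The least different was *Gbp5*, at 73.0 and 52.5 CPM (-0.47, -0.67 to -0.28), the gene with the widest ratio in neutrophils. The other 6 ranged from -0.64 in *Gbp6* to -0.55 in *Gbp8*.

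By count, 6 of 10 genes in these macrophages were lower by at least 1.5-fold and 0 higher, against 3.59% and 2.26% of 9764 features. *Irgm1*, at -0.58, lay just short of that fold. Among thinned cells, 23.3% in UT and 12.1% in BUP had UMIs of 3 or more of the 10 genes. The count was 3 with the stricter cell filter, at a clustering resolution of 1.0 and with median-ratio scaling, while the summed ratio under these and 5 other alternatives stayed between -0.74 and -0.59.

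C1q macrophages, the mature type that makes complement C1q, split by gene. *Gbp2* stood at 266 CPM in 1218 UT cells and 179 CPM in 519 BUP cells (-0.57, -0.67 to -0.48), and *Gbp4* at 163 and 110 CPM (-0.58, -0.70 to -0.46). *Irgm1* was at 84.1 and 59.7 CPM (-0.49), *Gbp6* at 58.9 and 42.6 CPM (-0.47), *Igtp* at 71.5 and 51.8 CPM (-0.46) and *Gbp7* at 157 and 125 CPM (-0.33). *Gbp5*, at 64.2 and 68.0 CPM (0.08, -0.08 to 0.25), and *Gbp8*, at 48.3 and 50.1 CPM (0.05, -0.14 to 0.24), had intervals that included 0, and *Gbp3* (-0.16) and *Gbp9* (-0.19) lay between. No gene passed 1.5-fold, 0 of 10 in either direction, where 3.16% of 10869 features were lower and 3.82% higher. The count of lower genes was 1 to 2 under 3 of the alternatives.

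Cycling C1q macrophages had a summed level of 1160 CPM in 242 UT cells and 938 CPM in 64 BUP cells. *Igtp* (78.2 and 46.4 CPM, -0.75), *Gbp6* (78.0 and 47.4 CPM, -0.72) and *Irgm1* (95.6 and 59.5 CPM, -0.68) were the 3 of 10 lower by at least 1.5-fold, with 0 higher, against 8.35% and 3.38% of 8695 features. *Gbp2* stood at 289 and 257 CPM (-0.17, -0.37 to 0.03). The count for this class was 5 to 6 under 4 of the alternatives, and the summed ratio then lay between -0.57 and -0.45.

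**Figure D4:**
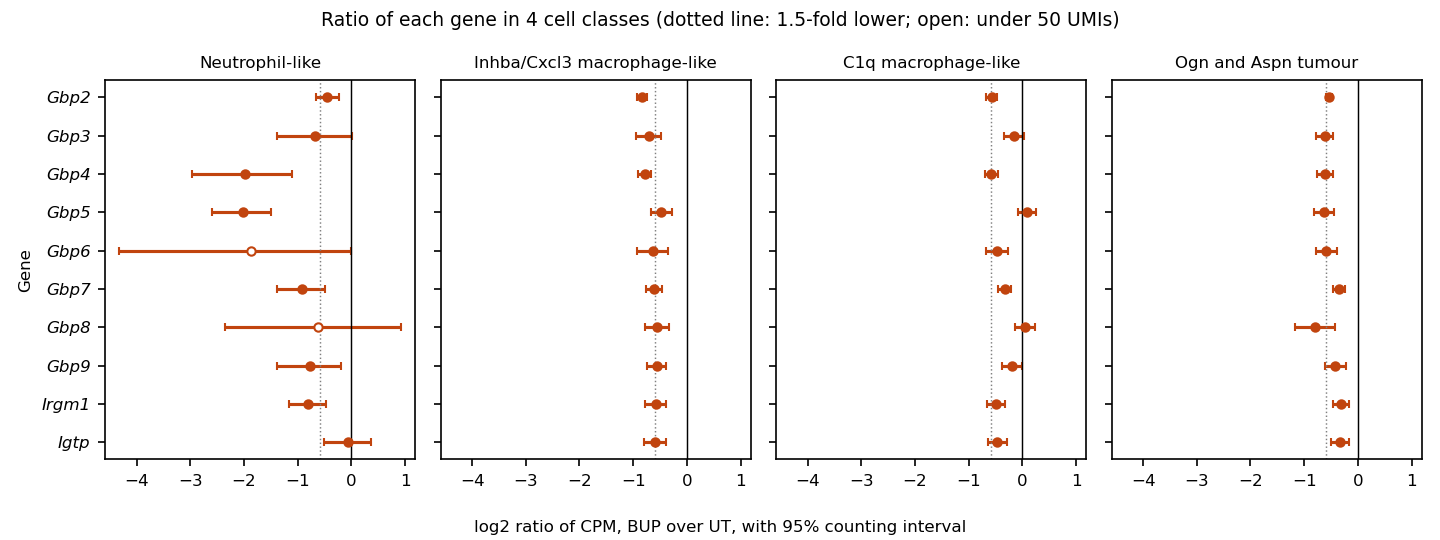
Log2 ratio of CPM, BUP over UT (horizontal axis), of the 10 genes (rows) in 4 classes, with 95% counting intervals as bars, a dotted line at 1.5-fold lower and open circles for genes under 50 UMIs. In the *Inhba* and *Cxcl3* macrophage-like panel all 10 points lie between -0.83 and -0.47, whereas the neutrophil-like panel runs from -2.03 for *Gbp5* to -0.07 for *Igtp*.

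Interferon-led macrophages were the class in which the libraries were closest among the myeloid cells. *Gbp2* stood at 723 and 663 CPM (-0.13), *Gbp7* at 264 and 256 CPM (-0.04) and *Irgm1* at 235 and 212 CPM (-0.15) in 226 UT and 97 BUP cells. *Gbp5* stood at 188 and 235 CPM (0.32, 0.08 to 0.57), the 1 value among the 13 classes whose interval lay above 0. *Igtp* (165 and 122 CPM, -0.43), *Gbp6* (112 and 85.5 CPM, -0.39) and *Gbp4* (361 and 302 CPM, -0.26) were lower. None of 10 passed 1.5-fold in either direction, 0 lower and 0 higher, against 5.44% and 3.43% of 6179 features. With the stricter cell filter the class grew to 373 and 217 cells, 6 genes were lower by that fold and *Gbp5* turned to -0.30. The summed ratio, -0.11, was 0.0086 at a resolution of 1.0 and 0.042 with the GTPase genes kept among the genes for clustering.

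*Adgre4* and *Ace* monocytes, which resemble the patrolling type, had a summed level of 843 CPM in 486 UT and 630 CPM in 253 BUP cells. *Gbp6* (29.6 and 13.7 CPM, -1.12, on 46 and 11 UMIs), *Gbp2* (187 and 118 CPM, -0.66) and *Gbp4* (112 and 73.2 CPM, -0.61) were the 3 of 10 lower by at least 1.5-fold and 0 were higher, against 5.88% and 4.7% of 5933 features. *Gbp3* (51.5 and 50.9 CPM, -0.02) and *Gbp5* (98.4 and 90.6 CPM, -0.12) had intervals that included 0. The count was 1 with the GTPase genes kept among the genes for clustering and 0 with the interferon lists left out of them, and the summed ratio in the latter was -0.25. This class was shallow, with medians of 1965 and 1791 UMIs, and the stricter filter left 209 and 101 cells.

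T and NK cells are the usual sources of interferon gamma. In 307 UT and 482 BUP CD8 T cells, *Gbp6* stood at 127 and 90.8 CPM (-0.49, -0.73 to -0.24), *Gbp7* at 129 and 94.1 CPM (-0.45, -0.69 to -0.21) and *Irgm1* at 33.0 and 21.3 CPM (-0.63, -1.14 to -0.13). *Gbp4* stood at 149 and 147 CPM (-0.02, -0.23 to 0.19) and *Gbp8* at 53.6 and 53.1 CPM (-0.01, -0.37 to 0.34). *Irgm1* was the 1 of 10 lower by at least 1.5-fold and 0 were higher, against 7.18% and 2.08% of 8235 features, and that count ranged from 0 to 4 over the alternatives.

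In cycling CD8 T cells *Gbp2* stood at 66.4 and 40.5 CPM (-0.71, -1.07 to -0.36), the 1 of 10 lower by at least 1.5-fold with 0 higher, against 5.07% and 3.25% of 8498 features. *Gbp7* stood at 124 and 92.5 CPM (-0.42) and *Gbp4* at 130 and 106 CPM (-0.30), while *Gbp3*, *Gbp6*, *Gbp5* and *Irgm1* lay within 0.04 of 0 on the log2 scale. The count was 3 with thinned cells and with mean single-cell CPM.

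Regulatory and gamma-delta T cells were a small class of 112 UT and 88 BUP cells that expressed *Ikzf2*, *Ctla4* and *Il17a*. *Irgm1* stood at 94.8 and 47.7 CPM (-0.99, -1.90 to -0.14), *Igtp* at 192 and 123 CPM (-0.64, -1.20 to -0.09) and *Gbp6* at 223 and 146 CPM (-0.61, -1.13 to -0.11). These were the 3 of 9 genes lower by at least 1.5-fold and 0 were higher, against 11.2% and 5.19% of 2834 features, and *Gbp5*, on 25 and 11 UMIs, did not pass the minimum. *Gbp4* (256 and 193 CPM, -0.40) and *Gbp7* (194 and 165 CPM, -0.23) had intervals that included 0. With median-ratio scaling 1 gene stayed past the fold, and with at least 200 UMIs none did. In the 38 UT and 48 BUP cells without a UMI of 5 macrophage genes the sum moved from -0.46 to -1.04.

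NK cells had the smallest difference among the lymphocytes, with a summed level of 559 and 513 CPM (-0.13, -0.23 to -0.02) in 486 UT and 343 BUP cells. *Gbp4* stood at 162 and 133 CPM (-0.28, -0.48 to -0.08) and *Gbp2* at 52.0 and 39.4 CPM (-0.40, -0.77 to -0.03). *Gbp8* (41.3 and 50.7 CPM, 0.30, -0.07 to 0.65) and *Gbp9* (56.6 and 66.7 CPM, 0.24, -0.07 to 0.55) were on the other side of 0, with intervals that included it. None of 10 passed 1.5-fold, 0 lower and 0 higher, against 6.54% and 1.3% of 8406 features. In NK cells without a UMI of 5 macrophage genes the sum stood at -0.36, *Irgm1* (-0.88) and *Igtp* (-0.93) were past the fold, and *Gbp8* (-0.21) and *Gbp9* (-0.05) changed sign.

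Tumor cells differed by type. In the *Ogn* and *Aspn* tumor cells, with 496 cells in UT and 1496 in BUP, all 10 genes lay lower, among them *Gbp2* at 432 and 297 CPM (-0.54, -0.60 to -0.48), *Gbp5* at 48.3 and 31.3 CPM (-0.63, -0.82 to -0.44) and *Gbp8* at 13.3 and 7.65 CPM (-0.80, -1.17 to -0.43). *Gbp3*, *Gbp4*, *Gbp5*, *Gbp6* and *Gbp8* were the 5 of 10 lower by at least 1.5-fold, with 0 higher, against 4.33% and 1.27% of 11650 features. Both IRGs were lower by less, *Irgm1* at 69.7 and 56.1 CPM (-0.31) and *Igtp* at 62.5 and 49.7 CPM (-0.33), and *Irgm1* turned to 0.13 in thinned cells. The 5 lay between -0.59 and -0.80, close to the fold, and 1 to 3 remained past it under 7 of the alternatives.

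The *Krt20* and *Esm1* tumor cells had a summed ratio of -0.08 over all their cells. *Gbp2* stood at 259 and 254 CPM (-0.03, -0.09 to 0.04), *Gbp3* at 46.8 and 48.3 CPM (0.05) and *Gbp5* at 16.9 and 17.9 CPM (0.08) in 455 UT and 703 BUP cells. *Gbp8* (6.18 and 4.05 CPM, -0.61, -1.07 to -0.15) was the 1 of 10 lower by at least 1.5-fold and 0 were higher, against 3.22% and 1.38% of 11554 features, and *Gbp9* (19.0 and 14.0 CPM, -0.44) followed. The count was 0 under 4 of the alternatives and 2 in cells without a UMI of 5 macrophage genes. In the latter the sum stood at -0.38 (-0.44 to -0.32), *Gbp2* at -0.32 (-0.41 to -0.24), *Gbp4* at -0.57, *Irgm1* at -0.50, *Gbp7* at -0.49 and *Gbp9* at -0.79, and *Gbp3* (-0.20) and *Gbp5* (-0.04) changed sign.

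In cycling tumor cells none of 10 passed the fold, 0 lower and 0 higher, against 3.28% and 2.93% of 10568 features. *Gbp2* was at 216 and 201 CPM (-0.10) there and *Gbp3* at 60.6 and 50.3 CPM (-0.27, -0.47 to -0.07). Of the cells in this class, 21.7% were among the highest doublet scores, against at most 6.43% in the other 12 classes. With cells thinned to 2000 UMIs *Gbp3* turned to 0.20 and the sum to 0.21 there, with 1 gene lower and 2 higher by the fold. In the 63 UT and 134 BUP cells without a UMI of the 5 macrophage genes the sum went the other way, to -0.54 (-0.64 to -0.43). There *Gbp2*, at -0.79 (-0.95 to -0.63), and *Gbp3*, at -0.96 (-1.27 to -0.64), were past the fold.

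Macrophage RNA was lower in BUP in several classes outside the macrophages. The sum of the 10 GTPase genes had log2 ratios of -0.74 in neutrophils, -0.29 in CD8 T and -0.50 in *Ogn* and *Aspn* tumor cells. It stood at only -0.08 in *Krt20* and *Esm1* and -0.05 in cycling tumor cells. The summed level of *C1qa*, *C1qb*, *C1qc*, *Apoe* and *Ms4a7*, 5 genes used here as macrophage markers, was 785 CPM in UT and 447 CPM in BUP neutrophils (log2 ratio -0.81). It was 335 and 159 CPM in CD8 T cells (-1.07), 403 and 229 CPM in *Ogn* and *Aspn* tumor cells (-0.82), 168 and 57.2 CPM in *Krt20* and *Esm1* tumor cells (-1.55) and 533 and 285 CPM in cycling tumor cells (-0.90). Few cells held much of this RNA in the tumor classes. The top 5 cells held 68.4% of it in UT and 31.1% in BUP among *Ogn* and *Aspn* tumor cells. They held 67.8% and 63.0% among *Krt20* and *Esm1* tumor cells and 47.0% and 73.0% among cycling tumor cells. In cycling CD8 T cells the macrophage sum went the other way (115 and 153 CPM, 0.41), and in NK cells and regulatory and gamma-delta T cells it differed by -0.17 and -0.15. In these classes, in this order, 5 cells held 46.6%, 55.4% and 60.5% of the macrophage UMIs in BUP, against 13.3%, 17.2% and 23.6% in UT. The share of cells with such a UMI was lower in BUP in each. It was 69.0% in UT and 51.9% in BUP, 68.7% and 41.7%, and 66.1% and 45.5%. All 5 of these genes were detected in neutrophils of both libraries, so none of the defining macrophage markers was at 0.

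The ratio in neutrophils was as large in cells without any UMI of those 5 genes, a choice made after the data had been seen. In the 164 UT and 200 BUP neutrophils without one, the 10 GTPase genes summed to 1118 and 643 CPM (-0.80, -1.03 to -0.56), *Gbp5* stood at 129 and 33.1 CPM (-1.96, -2.94 to -1.06), and *Gbp4* had 15 and 2 UMIs. With fewer UMIs, 3 genes remained past 1.5-fold. Cells without macrophage UMIs gave -0.22 in CD8 T, -0.19 in cycling CD8 T, -0.65 in *Ogn* and *Aspn* tumor, -0.38 in *Krt20* and *Esm1* tumor, -0.54 in cycling tumor, -0.36 in NK and -1.04 in regulatory and gamma-delta T cells. In NK, regulatory and gamma-delta T and all 3 tumor classes the difference was wider than in all cells of the class. The cells kept were 38 of 112 UT and 48 of 88 BUP regulatory and gamma-delta T cells, and 152 of 486 and 200 of 343 NK cells. They were 217 of 496 and 985 of 1496 *Ogn* and *Aspn*, 180 of 455 and 454 of 703 *Krt20* and *Esm1*, and 63 of 176 and 134 of 235 cycling tumor cells. The part of this unequal choice of cells in the wider values was not tested.

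Per UMI of the 5 macrophage genes, erythroid-like cells held 0.156 UMIs of the 10 GTPase genes in UT and 0.148 in BUP, and neutrophils 1.29 and 1.36. For *Gbp5* alone the erythroid-like cells held 0 UMIs beside 122 and 27 macrophage UMIs, and neutrophils 0.163 and 0.0701 UMIs per macrophage UMI. C1q macrophages held 0.00395 and 0.00416 *Gbp5* UMIs per macrophage UMI. At such a ratio so few macrophage UMIs would bring almost no *Gbp5* UMI, so the 0 sets no background for neutrophils. The part of free RNA was not tested.

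**Figure D5:**
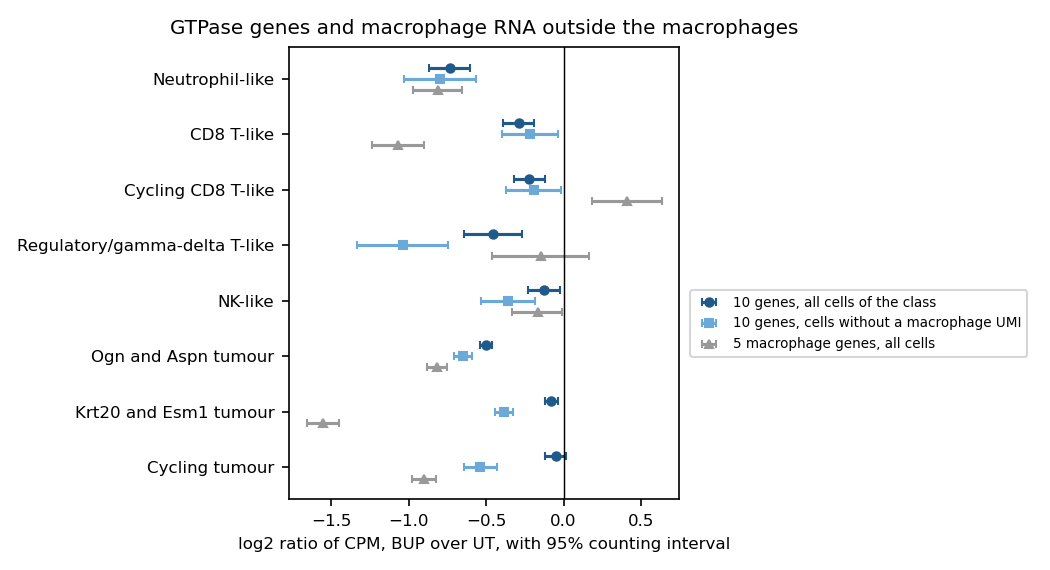
Log2 ratio of CPM, BUP over UT (horizontal axis), in 8 classes outside the macrophages, for the 10 GTPase genes in all cells (circles), the same genes in cells without a UMI of 5 macrophage genes (squares) and the 5 macrophage genes in all cells (triangles), with 95% counting intervals as bars. In neutrophil-like cells the circle and the square lie at -0.74 and -0.80, and in *Krt20* and *Esm1* tumor cells the triangle lies far to the left, at -1.55.

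The pathway above these genes was followed from ligand to targets. Counts past 1.5-fold below stand beside the share of all features lower by that fold. It was 13.4% in neutrophils, 3.59% in *Inhba* and *Cxcl3*, 3.16% in C1q and 8.35% in cycling C1q macrophages. It was 11.2% in regulatory and gamma-delta T, 7.18% in CD8 T and 4.33% in *Ogn* and *Aspn* tumor cells. Higher were 3.82% in C1q macrophages, 1.27% in *Ogn* and *Aspn* and 2.93% in cycling tumor cells. Nothing is read from these counts. *Ifng*, the ligand, stood at 330 and 323 CPM in CD8 T cells (-0.03, on 720 and 986 UMIs), at 255 and 201 CPM in cycling CD8 T cells (-0.34, -0.51 to -0.18) and at 37.6 and 41.1 CPM in NK cells (0.13). The regulatory and gamma-delta T cells had 29 and 19 *Ifng* UMIs, under the minimum. Cycling tumor cells, the class with most high doublet scores, had 21 and 85 *Ifng* UMIs (3.00 and 11.1 CPM, 1.88).

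*Irf1*, a transcription factor that interferon gamma induces, stood at 614 and 653 CPM in neutrophils (0.09) and at 298 and 259 CPM in *Inhba* and *Cxcl3* macrophages (-0.20). It lay between -0.10 and 0.16 in C1q macrophages (0.05), interferon-led macrophages (-0.10), *Adgre4* and *Ace* monocytes (0.08), CD8 T (0.16), NK (-0.09), *Ogn* and *Aspn* tumor (-0.05) and *Krt20* and *Esm1* tumor cells (0.04). Wider values were -0.42 in regulatory and gamma-delta T cells, -0.33 in cycling C1q macrophages, 0.21 in cycling CD8 T cells and 0.30 in cycling tumor cells. Of the 12 signalling genes that passed in neutrophils, 2 were lower by at least 1.5-fold, *Irf8* (32.4 and 17.0 CPM, -0.93) and *Socs1*, a feedback inhibitor (121 and 78.7 CPM, -0.63), and 0 higher. In *Inhba* and *Cxcl3* macrophages *Socs1* was the 1 of 12 (90.4 and 59.7 CPM, -0.60), in C1q macrophages and *Ogn* and *Aspn* tumor cells 0 of 12 passed the fold, and in cycling tumor cells *Ifng* and *Irf8* (0.59) were the 2 of 13 that were higher.

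Other GBP and IRG genes, 10 of them listed by symbol, were scarce in most classes. In *Inhba* and *Cxcl3* macrophages 5 of the 6 that passed were lower by at least 1.5-fold, led by the effector IRGs *Iigp1* (37.7 and 13.2 CPM, -1.52) and *Tgtp2* (15.3 and 6.59 CPM, -1.22), then *Gm4951* (-0.90) and *Gbp10* (-0.82). In *Ogn* and *Aspn* tumor cells 4 of 9 were lower, *Tgtp1* (10.8 and 4.09 CPM, -1.40), *Gbp10* (-0.87), *Gbp2b* (86.4 and 52.4 CPM, -0.72) and *Tgtp2* (-0.69). CD8 T cells had 3 of 4 lower, among them *Iigp1* (19.2 and 6.23 CPM, -1.63) and *Tgtp2* (-1.41). Cycling tumor cells had 2 of 7 higher, *Gm4951* (0.74) and *Iigp1* (25.7 and 39.7 CPM, 0.63). Neutrophils had 0 of 2 past the fold, *Gbp2b* at -0.56 and *Irgm2* at -0.33. *Tgtp1* and *Tgtp2* are near-identical copies, so the split of their counts is uncertain.

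Interferon gamma targets that are no GTPases were lower by at least 1.5-fold in 5 of 12 cases in neutrophils, with 0 higher and a median of -0.45. The chemokine *Cxcl10* stood at 376 and 116 CPM (-1.69) there, *Ly6a* at 30.9 and 14.3 CPM (-1.11), and the immunoproteasome genes *Psmb10* at 62.6 and 31.3 CPM and *Psmb8* at 241 and 140 CPM (-0.79). In *Inhba* and *Cxcl3* macrophages 3 of 16 were lower, *Ly6a* (-1.01) and the T cell-attracting chemokines *Cxcl9* (199 and 109 CPM, -0.87) and *Cxcl10* (300 and 172 CPM, -0.80). In C1q macrophages 2 of 16 were lower, *Ly6a* (406 and 159 CPM, -1.35) and *Nos2* (-0.79), and *Ciita* (0.62) was higher. *Ogn* and *Aspn* tumor cells had 4 of 16 lower, *Cxcl9* (12.5 and 1.80 CPM, -2.80), *Fgl2* (-1.45) and the checkpoint ligand *Cd274* (44.1 and 24.5 CPM, -0.85) among them, and *Nos2* (1.39) higher. In the regulatory and gamma-delta T cells 5 of 12 were lower, with *Cxcl10* at 336 and 126 CPM (-1.41).

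Type I interferon response genes, a set that overlaps with interferon gamma targets, were lower by at least 1.5-fold in 8 of 11 cases in neutrophils with a median of -1.54. *Ifit3* stood at 86.8 and 15.2 CPM (-2.51), *Ifit2* at 150 and 26.8 CPM (-2.48), *Usp18* at 108 and 25.1 CPM (-2.11) and *Ifit1* at 227 and 60.8 CPM (-1.90). The medians of this list and of the 10 GTPase genes in the same cells were thus -1.54 and -0.79. In *Inhba* and *Cxcl3* macrophages 2 of 14 were lower (median -0.31), in C1q macrophages 3 of 14 (-0.33), in cycling C1q macrophages 7 of 14 (-0.73) and in *Ogn* and *Aspn* tumor cells 5 of 13 (-0.51). The median was -0.70 in regulatory and gamma-delta T cells but nearer 0 in other classes. It was -0.13 in cycling CD8 T, -0.08 in CD8 T and -0.03 in NK cells and in monocytes. In *Krt20* and *Esm1* tumor cells it was 0.0009, and in cycling tumor cells -0.0002. Genes of this list helped to define the interferon-led class, so its own values there are no result.

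Autophagy genes whose products load GBPs and IRGs onto membranes were 0 of 8 past the fold in neutrophils, with *Gabarapl2* at 116 and 149 CPM (0.36) and *Map1lc3b* at 651 and 764 CPM (0.23). They were also 0 of 9 in *Inhba* and *Cxcl3* macrophages, C1q macrophages and *Ogn* and *Aspn* tumor cells. In regulatory and gamma-delta T cells 2 of 5 were lower, down to -1.15, and in cycling C1q macrophages 1 of 9. Higher were 1 of 7 in interferon-led macrophages, 1 of 9 in monocytes and 1 of 9 in cycling CD8 T cells. Of all features, 3.43%, 4.7% and 3.25% were higher there, in this order. Inflammasome and pyroptosis genes were 0 of 7 in neutrophils and 0 of 8 in *Inhba* and *Cxcl3* macrophages. In C1q macrophages *Il1b* was the 1 of 8 that was higher (710 and 1164 CPM, 0.71), and in *Ogn* and *Aspn* tumor cells it was the 1 of 7 that was lower (111 and 70.9 CPM, -0.65). In CD8 T cells 2 of 7 were lower, *Il1b* (169 and 41.9 CPM, -2.01) and *Nlrp3* (22.9 and 9.18 CPM, -1.32). The count was also 2 of 7 in *Krt20* and *Esm1* tumor cells, and 1 of 7 in NK and in cycling tumor cells. Of all features, 3.22%, 6.54% and 3.28% were lower there, in this order.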

How the data were processed

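Single-cell RNA was measured in 1 UT and 1 BUP library, each pooled from 3 tumors. The authors deposited UMI counts per gene and barcode, as whole numbers without normalization, made on GRCm39 (Cell Ranger 8.0.1 by the submitters' processing notes). Barcodes were required to hold over 100 UMIs, less than 20% of them mitochondrial, and were clustered here in Seurat 5.3.0 (R 4.3.3; 2000 variable genes without 23 GBP and IRG symbols, 20 principal components, resolution 0.5), first all cells, then immune clusters (at least 30% of cells with a *Ptprc* UMI). Clusters were named from marker lists, with thresholds set after the clusters had been seen, and names rest on rebuilt clusters. *Tcrg-C1* and *Gm12250* were not matched. Values of 1 signalling gene are not reported here. No doublets were removed.

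UMIs were summed by class and given as CPM with exact Poisson intervals, log2 ratios with exact conditional intervals and shares with exact binomial intervals, at 95% (Python 3.11.15, numpy 2.4.6, scipy 1.17.1, pandas 2.3.3, matplotlib 3.10.9, scanpy 1.11.5 with Scrublet). A count of 0 allows 3 counts. Cells under 2000 UMIs were left out of shares after thinning. Features with at least 50 UMIs in a class were counted past 1.5-fold. Likeness used log2(CPM + 1). The 10 genes and all lists were chosen with earlier results of these data known. In each list, up to 4 genes with the widest ratios were named. Coding bases, aligned in Biopython 1.88, stood in for proteins, which were not used here. Promoter windows came from the reference genome of the same build. The ratio, interval and fold counts were tried on counts simulated for neutrophils and *Ogn* and *Aspn* tumor cells. Those counts had counting error only, the same model as the intervals. The simulation therefore checks the calculation and says nothing of the spread between cells or mice.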

Additional observations from a re-analysis of the deposited data

Results flagged for a closer look

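A set of values was picked out because their interval lay wholly above 0 in 1 class and wholly below 0 in others. *Gbp5* had a log2 ratio of 0.32 in interferon-led macrophages, and its interval lay below 0 in 4 of the 12 classes in which it passed 50 UMIs. Fibroblast-like cells, a class outside the 13, gave the other values. There the 10 genes summed to 247 CPM in UT and 500 CPM in BUP, a log2 ratio of 1.02, against intervals below 0 in 13 of 16 classes. *Gbp2* stood at 85.8 and 164 CPM (0.93), *Gbp4* at 6.86 and 44.1 CPM (2.69, on 2 and 63 UMIs), *Gbp6* at 13.7 and 51.8 CPM (1.92) and *Igtp* at 13.7 and 64.5 CPM (2.23), and these had intervals below 0 in 7 of 14, 9 of 14, 8 of 13 and 8 of 14 classes. The difference between classes was not tested. The UT library had 15 of these cells and the BUP library 64. The 5 cells with most UMIs held 75.0% of the UMIs of the 10 genes in UT and 51.1% in BUP, the 5 macrophage genes stood at 37.7 and 366 CPM, and 15.2% of the cells were among the highest doublet scores. The part of these in the result was not tested.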

How the results depend on the processing

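With 1 library a condition, no result has a replicate check. No paired analysis was possible because each group is 1 library and no result comes from a test. The summed ratio in neutrophils ranged from -0.87 to -0.65 over 8 alternatives. Shallow cells and few UMIs limit the neutrophil, monocyte and regulatory and gamma-delta T classes. Of 995 values of single genes, 915 stayed within their interval and 903 kept their sign, and 4 values whose own interval excluded 0 changed sign. Cells without macrophage UMIs were chosen after seeing the data, and 26 of 77 values of single genes moved there.

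The summed log2 ratio moved as follows. Resolution 1.0 gave -0.30 in C1q, -0.54 in cycling C1q, -0.59 in *Inhba* and *Cxcl3* and 0.0086 in interferon-led macrophages. The stricter cell filter gave -0.65 in interferon-led macrophages. The GTPase genes kept for clustering gave -0.55 in cycling C1q and 0.042 in interferon-led macrophages. The interferon lists left out gave -0.63 in *Inhba* and *Cxcl3* macrophages, -0.25 in monocytes and -0.55 in *Ogn* and *Aspn* tumor cells, with no interferon-led or cycling tumor class and so no value for them. Median-ratio scaling gave -0.62 in *Inhba* and *Cxcl3* macrophages, -0.43 in *Ogn* and *Aspn* and -0.024 in *Krt20* and *Esm1* tumor cells. Removal of the highest Scrublet scores gave -0.22 in cycling tumor cells. Thinning gave -0.32 in C1q, -0.57 in cycling C1q, -0.74 in *Inhba* and *Cxcl3* and -0.28 in interferon-led macrophages, -0.46 in cycling CD8 T, -0.34 in *Ogn* and *Aspn* and 0.21 in cycling tumor cells. Mean single-cell CPM gave -0.34 in C1q, -0.45 in cycling C1q and -0.19 in interferon-led macrophages, -0.40 in CD8 T, -0.39 in cycling CD8 T, -0.45 in *Ogn* and *Aspn*, -0.19 in *Krt20* and *Esm1* and 0.026 in cycling tumor cells. Cells without macrophage UMIs gave -1.04 in regulatory and gamma-delta T, -0.36 in NK, -0.65 in *Ogn* and *Aspn*, -0.38 in *Krt20* and *Esm1* and -0.54 in cycling tumor cells.

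The number of genes lower by at least 1.5-fold moved as well. The share of all features past the fold is given for the main setting only. Counts under the alternatives, here and above, therefore have no such share beside them, and nothing is read from them. The stricter filter gave 1 in C1q, 3 in *Inhba* and *Cxcl3* and 6 in interferon-led macrophages, 0 in CD8 T and 2 in *Ogn* and *Aspn* tumor cells. Resolution 1.0 gave 6 in cycling C1q and 3 in *Inhba* and *Cxcl3* macrophages, 0 in CD8 T and 3 in *Ogn* and *Aspn* tumor cells. The GTPase genes kept gave 5 in cycling C1q macrophages, 1 in monocytes and 3 in *Ogn* and *Aspn* tumor cells. The interferon lists left out gave 1 in C1q macrophages and 0 in monocytes, CD8 T and *Krt20* and *Esm1* tumor cells. Scrublet removal gave 1 in *Ogn* and *Aspn* tumor cells. Median-ratio scaling gave 3 in *Inhba* and *Cxcl3* macrophages, 0 in CD8 T, 1 in regulatory and gamma-delta T, 1 in *Ogn* and *Aspn* and 0 in *Krt20* and *Esm1* tumor cells. At least 200 UMIs gave 3 in neutrophils and 0 in CD8 T, regulatory and gamma-delta T and *Krt20* and *Esm1* tumor cells. Thinning gave 2 in C1q, 6 in cycling C1q and 1 in interferon-led macrophages, 3 in CD8 T and in cycling CD8 T, 2 in *Ogn* and *Aspn*, 0 in *Krt20* and *Esm1* and 1 in cycling tumor cells, and 1, 1, 1 and 2 genes were then higher in monocytes, cycling CD8 T, NK and cycling tumor cells. Mean single-cell CPM gave 5 in cycling C1q and 1 in interferon-led macrophages, 4 in CD8 T, 3 in cycling CD8 T and 2 in *Ogn* and *Aspn* tumor cells. Cells without macrophage UMIs gave 3 in neutrophils and 2 in NK, *Krt20* and *Esm1* and cycling tumor cells. The 4 single-gene values that changed sign although their interval excluded 0 were *Gbp5* (-0.30, stricter filter) and *Gbp4* (0.0015, resolution 1.0) in interferon-led macrophages, *Irgm1* (0.13, thinned) in *Ogn* and *Aspn* tumor cells and *Gbp3* (0.20, thinned) in cycling tumor cells. The cause was not tested.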

Other observations

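Erythroid-like cells held 19 UMIs of the 10 genes in UT and 4 in BUP (132 and 27.3 CPM), beside 849 and 184 CPM of the 5 macrophage genes. Mast-like cells, with 35 and 34 cells, held 22 and 21 UMIs (268 and 300 CPM, log2 ratio 0.16, -0.77 to 1.09), and *Gbp5* and *Gbp6* had none there in either library.

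RefSeq promoters of an older build, GRCm38.p6, were matched to 6 of the 10 genes. In these windows the ISRE letters occurred at a start of all 6 (*Gbp2*, *Gbp3*, *Gbp5*, *Gbp7*, *Irgm1* and *Igtp*) and the GAS letters in *Gbp5*, *Gbp7* and *Igtp*, against 3.99% and 9.55% of 27025 genes. *Gbp3* and *Igtp* had no match in the GRCm39 windows.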
